A study of Mus musculus with 12 samples.

Results

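The genes described here were expressed at a lower level with interferon β (IFNβ) than without it after 12 h of culture, and at a higher level after 24 h with IFNβ than after 12 h. They number 56, of 2038 genes that the authors list as changed in at least 1 of 3 comparisons. They were chosen by measured values: a gene had to be in the authors' list for IFNβ against control at 12 h with a lower mean, and in their list for IFNβ at 24 h against 12 h with a higher mean. A further 14 genes fit that rule and were left out by name (Abca1, Apoe, Arg1, Atp6v0d2, Fabp4, Fabp5, Gas6, Igf1, Mertk, Mmp12, Mrc1, Sepp1, Timp2 and Trem2), so the well-known macrophage genes with this course are not among the 56. The levels in those 2 comparisons are therefore a description, and no test of them is given.

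The cells were monocytes purified with magnetic beads from mouse bone marrow and cultured with 20 ng/mL M-CSF in every group. The labels give no strain, age or sex of the mice. The 4 groups of 3 replicates were M-CSF alone for 12 h (control), M-CSF with 100 U of IFNβ for 12 h, M-CSF alone for 24 h, and M-CSF with 100 U of IFNβ for 24 h. The labels do not say that replicates are separate animals, and p-values then cover only the spread among these libraries, possibly technical.

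M-CSF acts through the receptor Csf1r and drives bone marrow monocytes toward macrophages, which build up lysosomes, lipid handling, uptake of dead cells and metabolic enzymes over the first days of culture. IFNβ is a type I interferon. It binds the receptor chains Ifnar1 and Ifnar2 and, through the kinases Jak1 and Tyk2, activates transcription factors that switch on antiviral genes; part of the resting programme of a macrophage is turned down at the same time. Many antiviral genes decline again while the cytokine is still present, because inhibitors such as Usp18 and Socs1 damp the receptor.

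A gene is in a deposited list only if its adjusted p was under 0.05 and its log2 fold change 1 or more in either direction. A gene outside a list is therefore not shown to be the same in both groups, and depth per library is unknown. Of 36 interferon-stimulated genes in a list chosen for this work, 34 were in the authors' list as higher with IFNβ at 12 h. A gene listed as higher there cannot meet the rule, so none of the 34 could be among the 56. Of 12 monocyte and macrophage markers, 2 were in the 12 h list (Fcgr1 and Ly6c2, both higher with IFNβ); the labelled cell type could be checked only on genes that changed. No marker of mast cells and basophils was in any list. Of 14 dendritic cell markers, 5 were lower (Flt3, Cd209a, Itgax, Irf4 and Fscn1) and 3 higher (Xcr1, Bst2 and Dpp4) with IFNβ at 12 h, and the 8 together summed to 5232 to 6486 normalized counts in controls and 14864 to 19037 with IFNβ. The higher sum rests on the 3 higher genes alone. Bst2 is also on the list of interferon-stimulated genes, so the sum is not a measure of dendritic cells. Neutrophil markers were absent from the 12 h list. With time under IFNβ 2 of 18 were higher (Stfa2 and Stfa2l1, together 96.8 to 275 normalized counts at 12 h and 324 to 890 at 24 h), and in controls 5 of 18 were higher. Of the dendritic cell markers, Ccr9, Ccr7 and Fscn1 were higher and Xcr1 lower with time under IFNβ (the 4 summed to 859 to 1280 normalized counts at 12 h and 1678 to 2535 at 24 h), and 4 of 14 were higher with time in controls. The erythroid markers Slc4a1, Ermap and Car2 were lower with time under IFNβ (504 to 777 at 12 h and 177 to 235 at 24 h) and in controls, Cd4 was higher in both, and 3 of 11 B cell markers were higher with time in controls. With IFNβ at 12 h, 1 of 11 B cell markers and 1 of 12 erythroid markers were lower, and 2 of 15 T and NK cell and 3 of 14 stromal and endothelial markers were higher. The part of such cells in the results below was not tested, and in bulk RNA fewer cells of a type and less RNA per cell cannot be told apart.

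Levels are the authors' normalized counts, put on the scale of their 12 h table through the libraries that the tables share. With IFNβ at 12 h the level of the 56 genes had a median of 28.3% of the control level, from 0 to 48.3%. After 24 h with IFNβ it had a median of 99.4% of the same 12 h control level, from 41.4% to 483%. The mean stood above the 12 h control in 27 genes and below it in 29. For 47 genes it lay between 50% and 150% of that control, for 7 above and for 2 below (Trnp1 at 41.4% and Scn3a at 48.5%). The 3 IFNβ libraries at 24 h overlapped the 3 controls at 12 h in 44 genes, were all higher in 7 (Abcc3, Cacnb3, Enpp1, Fam198b, Fcrls, St18 and Zdhhc14) and all lower in 5 (Engase, Epas1, Kctd12b, Ltc4s and Slc26a11). The same shares over the 253 genes in both lists of the rule were not worked out, so these counts are only a description.

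On the log2(normalized count + 1) scale, on which changes of weakly expressed genes come out too small, the median difference was -1.79 for IFNβ against control at 12 h and 1.88 for IFNβ at 24 h against 12 h. At 12 h the IFNβ and control libraries did not overlap in 55 of the 56, Zfp462 being the exception, and the IFNβ libraries of 24 h and 12 h did not overlap in any of the 56. The lists require a small adjusted p, which favours such separation, and its share over all genes was not worked out. Over all genes tested, the authors list 3.17% as lower with IFNβ at 12 h and 2.16% as higher with time under IFNβ; since the rule used both lists, nothing is read from those shares. In the authors' deposited tables the log2 fold changes ranged from -5.22 to -1.05 at 12 h and from 1.02 to 4.98 with time, leaving out 3 genes listed at 0 in every 12 h IFNβ library. The members nearest to the limit at 12 h were Adcy6 at -1.05, Angptl4 at -1.10 and Zdhhc14 at -1.13. With time they were Engase at 1.02, Tanc2 at 1.11 and Zfp316 at 1.21. Genes just outside either limit are not in the files used here.

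**Figure D1:**
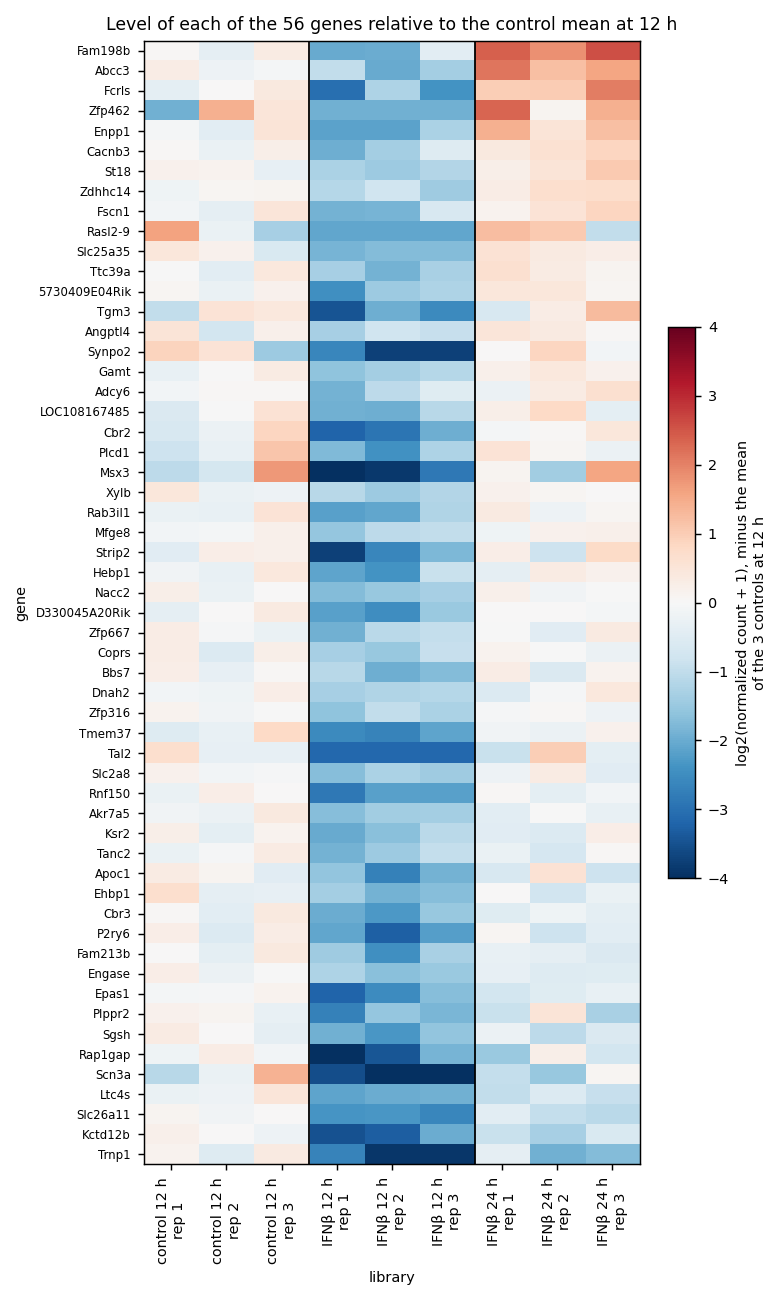
Each line is a gene and each column a library; colour gives log2(normalized count + 1) minus the mean of the 3 controls at 12 h, with values beyond -4 or 4 drawn in the end colours. The blue block in the middle is the 12 h IFNβ group, with a median of 28.3% of control; in the 3 columns on the right, 24 h with IFNβ, the genes run from above control (Fam198b, 483%) to below it (Trnp1, 41.4%).

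The map of levels by library shows the genes ordered by the log2 difference of their 24 h IFNβ level from the 12 h control. The plot of distances from the 12 h control gives the same genes with their standard errors, so that the 2 steps, down at 12 h and up by 24 h, can be compared gene by gene. Of the 56 genes, 19 had a mean level under 50 normalized counts and 4 under 10. The widest bars are among the 19, with Msx3 at 0.87, but not all of their bars are wide. Ltc4s (0.33) and St18 (0.34), both under 50, have narrower bars than Cbr2 (0.42), which is above it. The 3 genes listed at 0 in every 12 h IFNβ library are Tal2, Rasl2-9 and Zfp462, and no fold is given for them. Without them the median differences were -1.73 at 12 h and 1.86 with time.

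**Figure D2:**
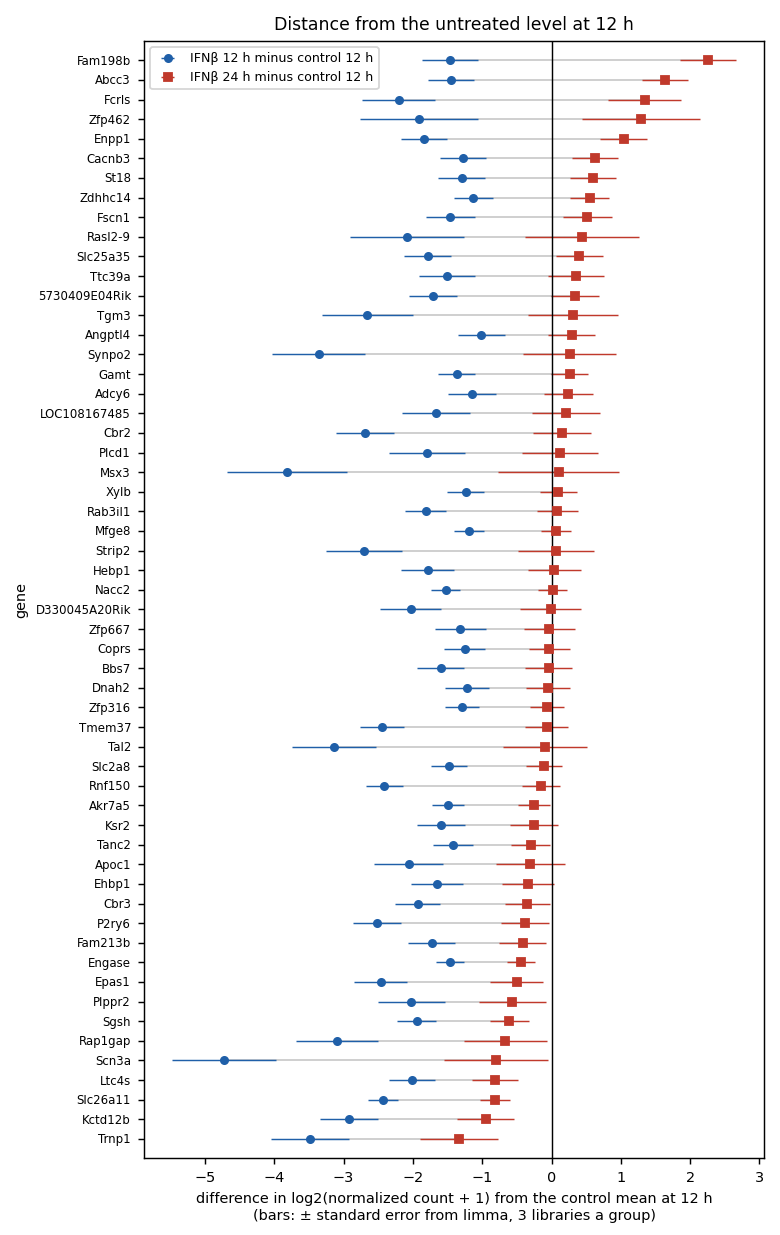
For each of the 56 genes, the difference in log2(normalized count + 1) from the control mean at 12 h is shown after 12 h (blue circles) and 24 h (red squares) with IFNβ; bars are ± the standard error from limma, 3 libraries a group. All circles lie left of 0, while the squares lie on both sides of it. By means of normalized counts, 27 genes were above the control mean and 29 below. The squares of Msx3, Plcd1 and Tal2 lie on the other side of 0 from that count.

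The signalling genes span receptors, GTPase regulators and enzymes that make or break second messengers. P2ry6, the receptor for UDP, a nucleotide released by damaged cells, had the highest control level at 12 h per kilobase of exon among the genes with an exon length, 997 normalized counts. Its 12 h controls stood at 3331, 1899 and 3402 normalized counts, the 12 h IFNβ libraries at 651, 289 and 599.5, and the 24 h IFNβ libraries at 2960.0, 1569 and 2083. The 3 low libraries at 12 h were all below every other one, and the 24 h libraries lay inside or below the control range. The log2 difference of P2ry6 was -2.52 ± 0.35 (SE) at 12 h and 2.14 ± 0.35 with time.

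Rab3il1, an exchange factor that loads Rab GTPases of secretory vesicles, had the highest control level at 12 h in normalized counts not divided by length. It was at 3061, 2952 and 5356 in controls, 814, 860.3 and 1581 with IFNβ at 12 h, and 4683, 3161 and 3881 with IFNβ at 24 h. Replicate 3 was highest of both 12 h groups, and the 24 h group overlapped the control group, with means of 3908 ± 761 (SD, n = 3) and 3790 ± 1358. Rap1gap, which switches off the GTPase Rap1, had a mean of 42.6 ± 8.28 in controls, 5.23 ± 5.03 with IFNβ at 12 h and 29.6 ± 17.9 at 24 h. Adcy6, an adenylyl cyclase that makes cyclic AMP, had the mildest fall of the 56 at 12 h, to 48.3% of control, and stood at 122% of it at 24 h. The others of the 8 signalling genes were Fcrls, an Fc receptor-like gene best known from microglia, Ksr2, a scaffold of the Raf-MEK-ERK cascade, Plcd1, a phospholipase C, and Rasl2-9, a Ras-like gene whose sequence is close to that of Ran, so its counts are uncertain. The median 24 h level of the 8 was 98.6% of the 12 h control.

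Channels and carriers numbered 7, with a median 24 h level of 94.6% of the 12 h control and the widest spread of any group except the genes of mixed function. Slc26a11, an anion transporter, was at 1120, 951 and 1048 normalized counts in controls, 199.8, 206 and 171 with IFNβ at 12 h and 780.2, 534 and 489.8 at 24 h. The 3 groups did not overlap one another: the 24 h libraries were all above the 12 h IFNβ libraries and all below the controls. Tmem37, a calcium channel γ subunit-like protein, was at 572, 666 and 1416 in controls, 137, 128 and 187 with IFNβ at 12 h and 732, 698 and 911 at 24 h, where it overlapped the controls. Abcc3, an export pump for conjugated organic anions, was at 179.6, 126 and 137 in controls, 73.9, 35 and 56 with IFNβ at 12 h and 646, 339.7 and 434 at 24 h. All 3 of its 24 h libraries were above all 3 controls of 12 h.

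Scn3a, a voltage-gated sodium channel, had the largest fall in the authors' list among the genes outside the lowest 25% by level. It was at 30.9, 55.8 and 179 normalized counts in controls, 4.88, 0.000163 and 2 with IFNβ at 12 h, and 34.2, 23.2 and 71.6 at 24 h. Replicate 3 was highest in the control and 24 h groups. The difference at 12 h was -4.73 ± 0.75 on the log2 scale. Cacnb3, an auxiliary subunit of voltage-gated calcium channels, went from 262 ± 44.6 in controls to 115 ± 57.9 with IFNβ at 12 h and 403 ± 66.8 at 24 h. Slc2a8, a sugar transporter of internal membranes, stood at 94.6% of its 12 h control at 24 h, and Slc25a35, of the mitochondrial carrier family, at 127%.

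The 11 enzymes had a median 24 h level of 82.9% of the 12 h control, with 5 of 11 means above it. Sgsh, a lysosomal sulfatase that removes sulfate from heparan sulfate, was at 849.9, 684 and 521 normalized counts in controls, 178, 132 and 224 with IFNβ at 12 h and 574, 328 and 452 at 24 h. Engase, which cuts N-glycans from proteins in the cytosol, was the member closest to the limit with time and stood at 73.1% of control at 24 h. Ltc4s makes leukotriene C4, an inflammatory lipid. Its controls were 64.8, 67.5 and 111, its 12 h IFNβ libraries 17.3, 19 and 20.0, and its 24 h IFNβ libraries 39.2, 54 and 41, with no overlap between the groups.

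The carbonyl reductases Cbr2 and Cbr3 and the aldo-keto reductase Akr7a5, which reduce aldehydes and ketones, were at 14.8%, 25.6% and 34.9% of control with IFNβ at 12 h and at 101%, 76.6% and 82.9% at 24 h. Cbr2 controls ranged from 164 to 472, its 12 h IFNβ libraries from 27.2 to 66 and its 24 h IFNβ libraries from 243 to 355. Enpp1, which hydrolyses extracellular ATP and the second messenger cGAMP, was at 426, 329 and 632 in controls, 101, 101 and 187 with IFNβ at 12 h and 1189, 636 and 1019 at 24 h. Every 24 h library of Enpp1 was above every 12 h control. Fam213b, a prostamide/prostaglandin F synthase, Gamt, which makes creatine, Xylb, a xylulose kinase, and Tgm3, a transglutaminase, stood at 73.2%, 118%, 104% and 132% of the 12 h control at 24 h.

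Of the 10 nuclear genes, Nacc2, a transcriptional repressor with a BTB domain, had the highest level. It was at 802, 562 and 681 normalized counts in controls, 202, 233 and 271 with IFNβ at 12 h and 782, 612 and 661 at 24 h, so that the 24 h and control libraries overlapped fully. Epas1, which encodes the hypoxia-inducible factor HIF-2α, was at 106, 108 and 124 in controls, 11.4, 19 and 34 with IFNβ at 12 h and 66.7, 80.8 and 91.1 at 24 h. The 24 h libraries of Epas1 all stayed below the controls. The zinc-finger genes St18, Zfp316 and Zfp667 stood at 155%, 95.4% and 99.3% of control at 24 h; Zfp462 and the basic helix-loop-helix gene Tal2 had control means of 4.45 ± 4.53 and 8.32 ± 4.03, and the homeobox gene Msx3 one of 42.1 ± 47, with replicate 3 far above the other controls. Coprs, a cofactor of the arginine methyltransferase Prmt5, stood at 95% and Trnp1, a nuclear protein, at 41.4%.

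Among genes of the cytoskeleton and cilium, Fscn1, which bundles actin filaments, was at 562, 463 and 831 normalized counts in controls, 161, 165 and 388 with IFNβ at 12 h and 660.2, 873 and 1098 at 24 h. Fscn1 is also the one of the 56 on the dendritic cell marker list described above. Dnah2, a dynein heavy chain, and Bbs7, a subunit of the BBSome that carries cargo at cilia, stood at 41.8% and 33.0% of control at 12 h and at 99.1% and 98.7% at 24 h. Synpo2, an actin-binding protein, was at or near 0 in 2 of 3 12 h IFNβ libraries and had a control mean of 15.5 ± 10.4, while Ehbp1, which links endocytic vesicles to actin, stood at 76.2% of control at 24 h. Mfge8, a secreted bridge between phosphatidylserine on dying cells and integrins of the phagocyte, was at 566, 578 and 701 in controls, 208, 298 and 308 with IFNβ at 12 h and 544, 691 and 700.4 at 24 h. Apoc1, an apolipoprotein, and Angptl4, an inhibitor of lipoprotein lipase, stood at 86.6% and 116% of control at 24 h.

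Rnf150, a RING finger protein, was at 255, 371 and 309 normalized counts in controls, 41.7, 67 and 66.9 with IFNβ at 12 h and 319, 233 and 287 at 24 h. Zdhhc14, a palmitoyltransferase, went from 104 ± 10.8 to 47.7 ± 10.6 and then 154 ± 23.6. Both ended near or above their 12 h control level. Fam198b, a Golgi protein, had the highest 24 h level relative to the 12 h control, 483%: its controls were 175, 129 and 208, its 12 h IFNβ libraries 40.7, 42 and 125, and its 24 h IFNβ libraries 874, 601 and 995. Kctd12b, of the family of GABA-B receptor auxiliary subunits, was at 158, 138 and 118, then 11.2, 13 and 34, then 72.9, 53.4 and 88.8, with no overlap between any of the 3 groups. Hebp1, a heme-binding protein, stood at 102% of control at 24 h and Strip2, of the striatin-interacting complex, at 113%.

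Of the 20 functional lists, 5 held any of the 56: efferocytosis and scavenger receptors (Mfge8, 1 of 25), lipid handling (Apoc1 and Ltc4s, 2 of 44), growth factors (Angptl4, 1 of 38), G protein-coupled receptors (P2ry6, 1 of 52) and adhesion and cytoskeleton (Fscn1, 1 of 50). For the efferocytosis list as a whole, the authors list 7 of 25 genes as lower and 5 as higher with IFNβ at 12 h, and 6 as higher and 0 as lower with time under IFNβ. For lipid handling, 9 of 44 were lower and 4 higher at 12 h, and 9 higher and 1 lower with time. None of the 56 was on the lists for complement, lysosome, antigen presentation by MHC class II or transcription factors. These lists are partial, so this does not show that such genes are absent. The lysosomal enzyme gene Sgsh and the nuclear genes Epas1, Nacc2, St18, Tal2 and Msx3 are members but not on them. Atp6v0d2, left out by name, is on the lysosome list.

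The 56 genes lie on 16 chromosomes, and 55 are protein coding in the RefSeq annotation of GRCm38. Sgsh and Slc26a11 are head to head on chromosome 11, Sgsh at 119343489 to 119355510 on the minus strand and Slc26a11 at 119355509 to 119381076 on the plus strand, so that their first bases overlap by 2. Both had a low level with IFNβ at 12 h (26.0% and 18.5% of control) and a partial return at 24 h (65.9% and 57.8%). Adcy6 and Cacnb3 are also divergent, 18.1 kb apart on chromosome 15, and stood at 48.3% and 44.0% at 12 h and 122% and 154% at 24 h. The exons of 11 members overlap those of a gene on the other strand, a protein-coding one for Sgsh (Card14), Fam213b (Mmel1), Hebp1 (Fam234b) and Slc25a35 (Rangrf). No source used here says whether the counting used strand, so the reads of such partners cannot be told apart.

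Promoter windows from RefSeq (250 bases before to 50 after the start, GRCm38.p6) matched 39 of the 56 genes, and 6 short motifs were searched in them on both strands. CACGTG, the palindromic E-box bound by basic helix-loop-helix factors such as Mitf, Tfeb, Usf1 and Myc, was in 8 of 39 windows, 20.5%, against 7.24% of 27025 windows of all genes. The 8 are shown because they include Rab3il1, the member with the highest level, which carries 2 copies, and Sgsh, a lysosomal enzyme. Only the window listed first was used for each gene, while Rab3il1 has 5 windows and Rap1gap 7. The Rab3il1 window begins at 10017944, inside the gene, whose annotated span begins at 10001669. Counting any window of a gene, the E-box was in 20.5% of the 39 members and 8.09% of all genes. The member windows were also richer in G and C, with a median of 61.7% against 52.7%, and the part of base composition in the E-box share was not tested. The other motifs reported were GAAANNGAA, the repeat bound by interferon regulatory factors, in 5.13% of member windows and 8.57% of all; GAGGAA, the PU.1 core, in 28.2% and 28.3%; TGANTCA, the AP-1 site, in 10.3% and 7.93%; and AGGTCA, a nuclear receptor half-site, in 10.3% and 16.0%. Matches of different motifs can share bases, since GAGGAA and GAAANNGAA both hold GAA, and TGANTCA and AGGTCA both end in TCA. These matches are a description of letters and say nothing of binding. The stretches below run 5′ to 3′ on the gene's strand, with the E-box in capitals and 12 bases on each side.
Rab3il1, chr19:10018140-10018169, plus strand: ggcgggaccgggCACGTGgcctggggcccg
Rab3il1, chr19:10018167-10018196, plus strand: ccgcctctcagaCACGTGacccgcccaggg
Sgsh, chr11:119355522-119355551, minus strand: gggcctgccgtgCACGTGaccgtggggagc
Hebp1, chr6:135168256-135168285, minus strand: ggagactgggctCACGTGggtggagtttgg
Bbs7, chr3:36613388-36613417, minus strand: gctaagatgggtCACGTGtcgagcccgcgt
Rap1gap, chr4:137664693-137664722, plus strand: gcgctcggcggtCACGTGacgttccccctc
Rasl2-9, chr7:5125950-5125979, minus strand: ctttagagggcgCACGTGcagcagccgctc
5730409E04Rik, chr4:126609803-126609832, plus strand: accgaaccggccCACGTGggtcagaccgct
D330045A20Rik, chrX:139480227-139480256, plus strand: gggagcttatgcCACGTGcttctctcatgc
Relative to the start site of the window used, the E-box began between -58 and -15 in 7 of the 8 genes and at -128 in D330045A20Rik.

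The next question is what these genes did without IFNβ, which the rule did not use. The authors list 18 of the 56 as higher in controls at 24 h than at 12 h and none as lower, 32.1% against 3.12% of all genes tested. The 12 h controls enter both this comparison and the rule. Among genes that the authors list as lower at 12 h and that are not in the list for time under IFNβ, 21 of 407 (5.16%) were higher and 19 lower in controls with time. Among the 265 genes higher with time under IFNβ and not listed as lower with IFNβ at 12 h, 132 (49.8%) were higher in controls. Of these 265, 235 are outside the 12 h list, which does not show them unchanged, and 109 of them (46.4%) were higher in controls. The other 30 are listed as higher with IFNβ at 12 h, and 23 of them (76.7%) were higher in controls. Of the 14 genes left out by name, 10 were higher and 1 lower in controls with time. So the share of the 56 lay above that of the 407 and below that of the 265, and no test of the difference was made. The median log2 fold change of the 18 in the authors' deposited table was 1.74, from 1.09 to 2.84. The other 38 are not in that list and have no 24 h control level here.

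The 18 genes also reached a higher level with IFNβ at 24 h, a median of 127% of the 12 h control with 15 of 18 over 100%, than the 38 did, 94.3% with 12 of 38 over it. This is a description, since the 12 h controls enter the split and the level.

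All 18 entered by being in the authors' list as higher in controls at 24 h, so their direction was fixed and a second fit of the same libraries is no independent test; it only shows how the calls move with the method. In limma on log2(normalized count + 1), with Benjamini-Hochberg adjustment over the 15822 genes tested, 12 of the 18 passed. Of the 645 genes of that list, 223 (34.6%) passed as higher. The 645 hold 493 genes listed as higher, as the 18 are, and 152 listed as lower. The 34.6% is therefore not the share among genes of the same direction, which is larger. A replicate block, which compares samples of the same replicate number, gave 18 of 18 with the variance trend and 2 without it. Leaving out control 24 h replicate 3 gave 4, leaving out control 12 h replicate 2, control 24 h replicate 1 or control 24 h replicate 2 gave 5 each, and fitting no variance trend without the block gave 6. Of the 18 genes, Fam198b and Cacnb3 kept an adjusted p under 0.05 in limma under every setting run.

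Fam198b, Strip2, Synpo2, Fscn1 and Cacnb3 had the largest differences between the 24 h and 12 h controls. Fam198b went from 175, 129 and 208 normalized counts to 1136, 1051 and 1473, a log2 difference of 2.84 ± 0.25 (SE). Strip2 went from 38.9, 65.3 and 62.6 to 417, 354 and 386, a difference of 2.81 ± 0.29. In both genes, all 24 h controls were far above all 12 h controls. Fscn1 was at 3908, 2787 and 3105 at 24 h, a difference of 2.43 ± 0.26 from its 12 h controls, and Cacnb3 at 1427, 1197 and 1351, a difference of 2.35 ± 0.22. Differences were smaller for Hebp1 (1.87 ± 0.28), Adcy6 (1.62 ± 0.21), Enpp1 (1.44 ± 0.30), Mfge8 (1.34 ± 0.22), Zdhhc14 (1.31 ± 0.25) and Rnf150 (1.11 ± 0.23).

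The controls of Synpo2 went from 23.9, 18.6 and 3.91 to 74.7, 91.8 and 86.8, a difference of 2.66 ± 0.56. Scn3a controls at 24 h were 196, 139 and 744 and Cbr2 controls 534, 429.6 and 965, with replicate 3 the highest, as at 12 h. The spread between replicates was wide in both, with differences of 1.98 ± 0.72 and 1.23 ± 0.43. With the replicate block the errors of these differences were 0.27 and 0.19.

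**Figure D3:**
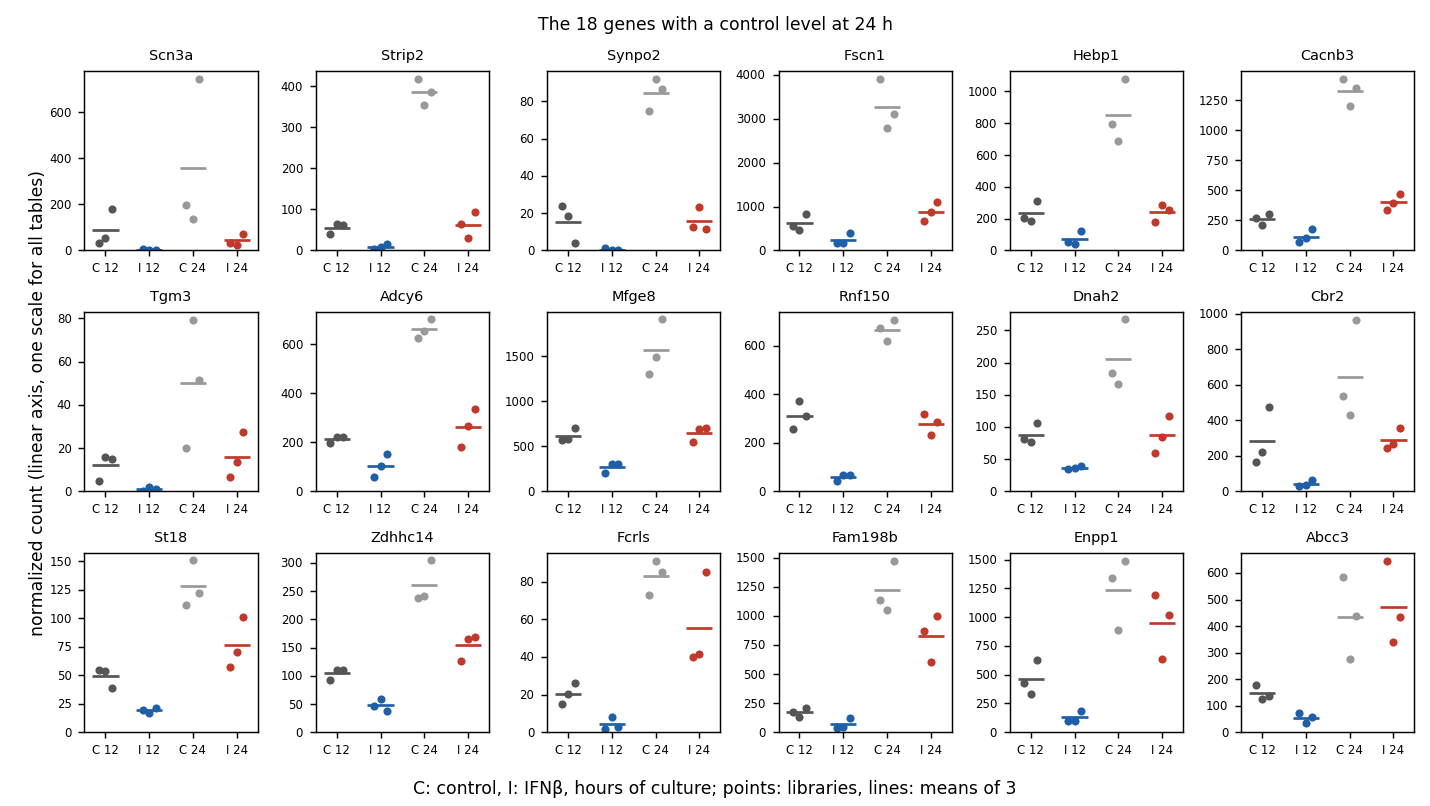
Each panel is one of the 18 genes with a 24 h control level; points are libraries and lines are means of 3, for control (C) and IFNβ (I) at 12 h and 24 h, in normalized counts on a linear axis from 0. The 24 h control stands highest in 17 panels; in Abcc3 the 24 h IFNβ mean is 109% of it.

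The panels of the 18 genes put the level with IFNβ at 24 h beside the control of the same hour, a contrast that is not in the rule. The 24 h IFNβ level had a median of 41.5% of the 24 h control, from 12.0% in Scn3a to 109% in Abcc3, and was lower in 17 of 18. All 3 IFNβ libraries were below all 3 controls in 14, and the groups overlapped in Tgm3, Fcrls, Enpp1 and Abcc3. The share of all genes of both time tables with such separation was not worked out, so nothing is read from that count. A 24 h control value exists only for genes that the authors list as changed with time in controls, and these 18 are listed as rising there, so the choice favours high 24 h controls. The 24 h IFNβ libraries also enter the rule.

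The median log2 difference between IFNβ and control at 24 h was -1.27 in the 18 genes, -0.30 over the 224 genes present in both time tables and -0.39 over the 160 of them that were higher with time in both. The difference was below 0 in 17 of the 18, in 131 of the 224 and in 97 of the 160. In limma over the 12 libraries and the 224 genes, with Benjamini-Hochberg adjustment over those genes, 11 of the 18 were past the threshold as lower with IFNβ and 0 as higher, against 47 of all 224 as lower (21.0%) and 46 as higher. Given how the 18 were selected, these counts are a description and not a test of them, and no p-values of single genes are given. The deposited 24 h list holds 5 other genes and was not used, so this contrast rests on the 2 time tables. These were set to one scale by a factor of 1.25 between them. Without that step the counts were 14 of the 18, and 83 lower and 32 higher of the 224. With the replicate block 15 of the 18 were past the threshold.

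Strip2 was at 65, 30.0 and 93.3 normalized counts with IFNβ at 24 h against 417, 354 and 386 in controls, a log2 difference of -2.74 ± 0.50. Fscn1 was at 660.2, 873 and 1098 against 3908, 2787 and 3105 (-1.91 ± 0.34). Cacnb3 was at 339, 397 and 473 against 1427, 1197 and 1351 (-1.72 ± 0.31). In these 3 genes no IFNβ library came near a control. Hebp1 differed by -1.83 ± 0.37, Adcy6 by -1.37 ± 0.33, Mfge8 by -1.27 ± 0.23, Rnf150 by -1.26 ± 0.26, Dnah2 by -1.25 ± 0.32 and Zdhhc14 by -0.76 ± 0.27. Synpo2 (-2.41 ± 0.58) and Scn3a (-2.79 ± 0.79) had large differences with wide errors, 0.53 for both with the replicate block.

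Cbr2 differed by -1.08 ± 0.43 and St18 by -0.77 ± 0.32, without overlap of the groups. With the replicate block these errors were 0.23 and 0.31. Fcrls was at 40.0, 41.5 and 85.3 with IFNβ and 73.0, 91.0 and 84.9 in controls, a difference of -0.65 with a 95% interval from -1.70 to 0.39. Enpp1 differed by -0.40, with an interval from -1.12 to 0.32. Abcc3 was at 646, 339.7 and 434 with IFNβ and 584, 277 and 438 in controls, a difference of 0.14 with an interval from -0.62 to 0.90; without rescaling it was -0.18. These intervals leave room for differences in either direction.

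The distance between IFNβ and control was smaller at 24 h than at 12 h in 11 of the 18 and not smaller in 7 (Strip2, Fscn1, Hebp1, Cacnb3, Adcy6, Mfge8 and Dnah2), with medians of -1.63 at 12 h and -1.27 at 24 h. The rises with time come from the same group means as these distances, so they restate this split and add no further result. In those 7 the controls rose by at least as much as the IFNβ samples: Fscn1 by 2.43 against 1.98 and Cacnb3 by 2.35 against 1.91. In the others the IFNβ samples rose by more: Fam198b by 3.73 against 2.84, Enpp1 by 2.88 against 1.44 and Cbr2 by 2.83 against 1.23. Whether the 2 distances differ was not tested, since the rule chose genes by the rise under IFNβ.

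**Figure D4:**
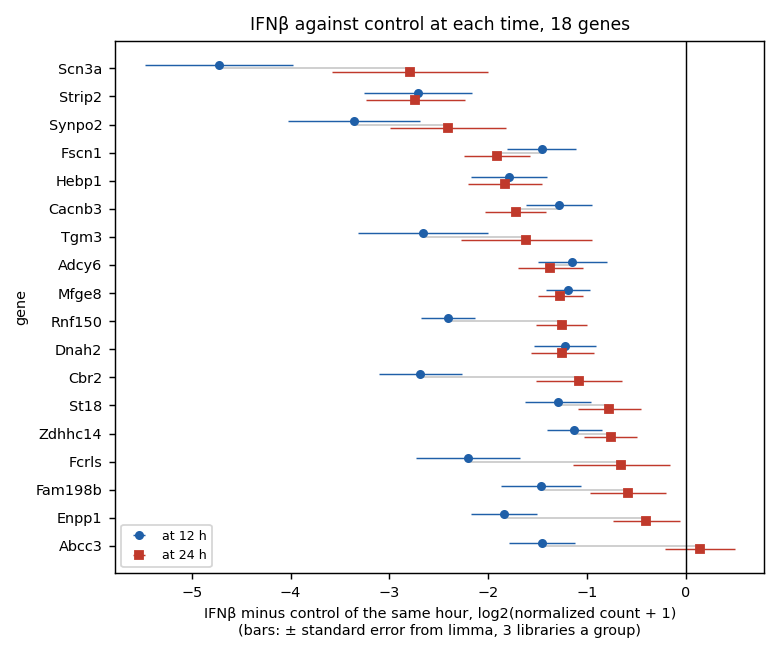
IFNβ minus control of the same hour, in log2(normalized count + 1), for the 18 genes at 12 h (blue circles) and 24 h (red squares); bars are ± the standard error from limma, 3 libraries a group. At 24 h the squares of 17 genes lie left of 0, from Scn3a at -2.79 to Enpp1 at -0.40, and Abcc3 lies at 0.14.

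The order of the 3 libraries within a group was the same across groups in some of these genes. Replicate 3 was the highest library in all 3 groups of the rule (control at 12 h and both IFNβ groups) for 11 of the 56 genes, 19.6%: Adcy6, Cacnb3, Cbr2, Dnah2, Epas1, Fam198b, Fscn1, Mfge8, Msx3, Tanc2 and Tmem37. Replicate 1 was the highest in all 3 for 6 of the 56 and replicate 2 for 0. Over the 253 genes in both lists the shares were 9.49%, 11.9% and 3.56% for replicates 3, 1 and 2. No test of this was made.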

How the data were processed

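The 12 samples (total RNA, sequenced) were deposited as 3 tables of 6 libraries each. Per the submitters' processing notes, bcl2fastq, HISAT2 2.2.1 and edgeR 3.3.3 were used with GRCm38; counting tool, annotation and strand: not given in the sources used here. The library values are read as the authors' normalized counts, a signal per gene; the headers name no unit, and this reading rests on the values. Whole reads could not be recovered: in 3 of 18 library columns over 99% of low values were whole multiples of one step within 0.05, and in the others 16.0% to 93.2%. The authors also deposited log2 fold changes, p-values and adjusted p-values per the file headers. Testing the files showed adjusted p under 0.05 and a log2 fold change of 1 or more in size for every gene listed. From the ratio of adjusted to raw p-values, 15661 genes were tested for the 12 h comparison, 15822 for time in controls and 15541 for time under IFNβ. A deposited list of 5 other genes at 24 h was not used, so IFNβ against control at 24 h rests on the rescaled time tables.

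The sample labels give the groups and the replicate numbers. Values were put on the scale of the 12 h table by the ratio of shared libraries over genes above 100 (factor 0.894 for the control time table and 1.12 for the IFNβ time table; per-library ratios 0.884 to 1.13). The test planned for counts was not used, because the values are normalized counts of listed genes. limma 3.58.1 in R 4.3.3, on log2(value + 1) with a variance trend and Benjamini-Hochberg adjustment, was run on all genes of a table. It was also tried on simulated data. The simulated libraries were independent, without replicate effects or selection of genes by p-value, so that trial does not show the error rate in these data. Since genes are listed for their small p-values, their spread is understated, and the fit of the controls describes these genes and is no independent test. Standard errors in the rule's contrasts come from a fit of 3 groups over 253 genes. Intervals are 95% limits from limma. Unless the replicate block is named, printed standard errors and intervals come from fits without it, so they include differences between replicate numbers. Deviations from the group means went together in samples sharing a replicate number (r across genes from 0.201 to 0.667 in 9 pairs, all above 0.1; different numbers -0.551 to 0.208), so the numbers are taken to pair the samples; replicates differed by at least 49.4 times the counting variance.

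The members and the lists (20 functional and 8 marker lists) were chosen with earlier results of these data known; groups by role, the motifs and the tally of the highest replicate were chosen after seeing values. Named were the 8 largest falls and 8 largest rises outside the lowest 25% by level, the 6 with the highest level, up to 12 in the control time table, up to 6 per list and the 3 nearest each limit; others are named as members of a count or of a role group, chosen after their values were seen. One of the motifs searched is not reported here. RefSeq (GRCm38.p6) matched 53 genes by symbol and 3 by synonym. Exon lengths and overlaps come from GENCODE. Alternatives were stricter limits, a mean of at least 50, a pseudocount of 0.1, the replicate block, no variance trend, no rescaling and each library left out. Other work used matplotlib 3.10.9, scipy 1.17.1, pandas 2.3.3 and numpy 2.4.6 in Python 3.11.15.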

Additional observations from a re-analysis of the deposited data

How the results depend on the processing

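The number of genes meeting the rule was 32 with a fold limit of 1.5 (log2), 37 at an adjusted p under 0.01, 37 at a mean of at least 50 and 56 to 56 with any one library left out; the last recomputes only the sign of the means, the authors' lists staying fixed, and says nothing of stability. At the stricter fold limit 11 were in the control time table. In limma, the number rising in controls was 6 without a variance trend, 2 with the replicate block and no variance trend (chosen after seeing the data), and 4 to 9 with one library left out, 18 with the block alone. The number lower with IFNβ at 24 h was 15 with the block, 9 to 13 with one library left out and within 1.5 times the 11 reported under every setting run. The 24 h difference of Abcc3 ranged from -0.18 to 0.39 over the settings run; it was -0.15 without control 24 h replicate 2, -0.11 without IFNβ 24 h replicate 1 and -0.18 without rescaling; the cause was not tested. The median difference at 12 h was -1.53 at a mean of at least 50 and -1.97 to -1.58 with one library left out, that with time under IFNβ 1.71 to 2.05, and that of IFNβ at 24 h against control at 12 h, near 0, -0.09 to 0.05. Of the alternatives for single genes, 424 kept direction and side of the threshold, 25 passed it newly, 66 lost it and 3 reversed. Depth is unknown, and 3 libraries a group limit the precision.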
